A study of Mus musculus with 2 samples.

Results

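Among 20854 nuclei of lactating mouse mammary fat pad, 290 formed a small myeloid group marked by Klra2, Fyb and Lair1 and nearly free of F13a1 and Mrc1. A nucleus belonged to it if it had 1 or more unique molecular identifiers (UMIs, each a counted RNA molecule) for at least 4 of the 8 genes Klra2, Fyb, Lair1, Gpr141, Ly86, Nlrp1b, Cybb and Havcr2. It could carry at most 1 UMI summed over F13a1 and Mrc1, and at most 1 UMI summed over Pdgfra, Pecam1, Trp63 and Adipoq, which mark fibroblasts, endothelium, myoepithelium and adipocytes. Nuclei came from the inguinal fat pads of 8 dams on postnatal day 11, with lymph nodes removed, and shared 1 droplet library for mRNA, while hashtags that mark the animal were read from another. The 4 dams labelled adipocyte-specific Oxtr KO lacked the oxytocin receptor gene Oxtr in adipocytes according to the labels, and the 4 Oxtr flox dams carried the floxed allele without that label. Floxed Oxtr is thus shared by both genotypes. The hashtags call the second genotype WT, which was taken to be Oxtr flox because the labels give no other genotype. The labels name no Cre driver. Breeding pairs were 8 weeks old, and litters were set to 4 or 5 pups on day 1. Of the litters listed, 7 had 5 pups and 1 had 3, without a tie to single dams.

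Tissue macrophages take up dying cells, milk residues and debris and can present antigen on MHC class II molecules. In the mouse mammary gland, macrophages of the stroma around vessels and fat typically express Lyve1, Mrc1 and Cd163, while ductal macrophages that lie between the epithelial layers express Cx3cr1 and Itgax and share genes with microglia. Dendritic cells, which also carry Itgax and MHC class II, are told apart by Flt3, Zbtb46, Xcr1, Cd209a or Ccr7. Of the genes in the rule, Lair1 and Klra2 encode inhibitory receptors, Havcr2 encodes TIM-3, Cybb encodes the catalytic subunit of the phagocyte NADPH oxidase, Fyb encodes an adaptor of integrin signalling, Ly86 encodes the partner of the receptor CD180, and Nlrp1b encodes an inflammasome sensor.

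The library held 107910356 UMIs in 21805 barcodes, with a median of 4212 UMIs per barcode. Member nuclei had a median of 3610.5 UMIs and 1873 genes, and the 273 comparison nuclei rich in F13a1 and Mrc1 had a median of 2597 UMIs and 1384 genes. A hashtag of 1 animal was called in 162 member nuclei, more than 1 hashtag in 43 (14.8%, 95% Clopper-Pearson interval 10.9 to 19.4%) and none in 85 (29.3%). Doublets made up 9.24% of the other kept nuclei. Free RNA was measurable in the member nuclei, since milk protein genes of the secretory epithelium took a median of 11.3% of their UMIs. Only some samples had their nuclei washed to lower free RNA, and the labels do not say which. The level of each gene in 15168 secretory-type nuclei (at least 4 of 6 secretory epithelial genes) and 1126 fibroblast-type nuclei (at least 4 of 6 fibroblast genes) is therefore given as the free-RNA level where it bears on a result. Intervals cover counting error only.

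The 8 genes of the rule were each found in most member nuclei, which follows from how they were chosen. Fyb was detected in 282 of 290 member nuclei (97.2%), Klra2 in 251 (86.6%), Lair1 in 247 (85.2%) and Havcr2 in 179 (61.7%). Of the comparison nuclei, 65.6% had Fyb, 1.47% Klra2, 6.23% Lair1 and 0.366% Havcr2. All 8 genes were seen in 58 member nuclei, 7 in 79, 6 in 63, 5 in 53 and 4 in 37. Another 90 nuclei reached 4 genes but were left out: 37 by F13a1 and Mrc1 alone, 43 by the 4 genes of other cell types alone and 10 by both. At the border of the rule, genes that it did not use thinned out. At least 3 of the ductal macrophage genes Cx3cr1, Itgax, Cadm1 and Itgb5 were seen in 36 of 52 member nuclei with 8 rule genes (69.2%) and in 11 of 35 with 4 (31.4%), hashtag doublets left out. Just outside, with 3 rule genes, 5 of 27 nuclei had them (18.5%). The median depth of these nuclei was 3738 UMIs with 8 rule genes, 2592 with 4 and 1907 with 3. Their median share of milk protein UMIs was 9.02, 16.3 and 21.5%. The part of depth and free RNA in the falling shares was not tested.

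The member nuclei carried core macrophage genes, some at levels near those of the F13a1 and Mrc1 nuclei and some lower. Levels are summed UMIs per 1000000 UMIs of the group (CPM), pooled over the 6 animals with at least 5 nuclei of both groups, which gave 130 member nuclei with 765443 UMIs and 88 comparison nuclei with 431506 UMIs. Csf1r, the receptor for the growth factor that macrophages depend on, was at 175 CPM in member nuclei and 171 CPM in the F13a1 and Mrc1 nuclei. The complement gene C1qa was at 226 CPM in member nuclei and 176 CPM in the comparison nuclei. Adgre1, which encodes the macrophage antigen F4/80, was lower at 182 CPM in member nuclei, against 322 CPM in the comparison nuclei. Csf1r, Adgre1 and C1qa lay at 2.07, 2.12 and 5.49 CPM in secretory-type nuclei. With hashtag doublets left out, 208 of 247 member nuclei (84.2%) and 193 of 245 comparison nuclei (78.8%) had a UMI of C1qa, C1qb or C1qc, against 5.37% of secretory-type nuclei, whose median depth was higher. Of 13 core macrophage genes with at least 20 UMIs over both groups, 1 was called different. That gene was Maf, a macrophage transcription factor, at 67.9 CPM in member nuclei and 637 CPM in the F13a1 and Mrc1 nuclei. Mertk, an engulfment receptor, was at 84.9 CPM in member nuclei, below its 99.6 CPM in secretory-type nuclei, and at 334 CPM in the comparison nuclei. The lysozyme gene Lyz2 was at 73.2 CPM in member nuclei and 167 CPM in the comparison nuclei, and both Mertk and Lyz2 were lower in member nuclei of 6 of 6 animals.

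Member nuclei were set apart by ductal macrophage genes. The adhesion gene Cadm1 was at 1033 CPM in member nuclei and 32.4 CPM in the comparison nuclei. By animal, member nuclei had 1167, 834 and 1066 CPM of Cadm1 in KO1, KO2 and KO4 and 1013, 1194 and 977 CPM in flox2, flox3 and flox4. The F13a1 and Mrc1 nuclei of the same animals had 83.6, 24.3 and 20.0 CPM in KO1, KO2 and KO4 and 22.9, 0 and 15.8 CPM in flox2, flox3 and flox4. The ranges did not overlap. Cx3cr1, the fractalkine receptor, was at 136 CPM in member nuclei and 11.6 CPM in the comparison nuclei, and the integrin subunit gene Itgb5 at 452 CPM in member nuclei and 55.6 CPM in the comparison nuclei. Unlike Cadm1, Cx3cr1 and Itgax, Itgb5 was not 4-fold above its level in both secretory-type and fibroblast-type nuclei. Itgax, which encodes CD11c, was at 105 CPM in member nuclei and 2.32 CPM in the others, a single UMI, which gives a ratio of 45.1 with an exact 95% interval of 7.87 to 1803. At least 3 of Cx3cr1, Itgax, Cadm1 and Itgb5 were seen in 145 of 247 member nuclei (58.7%, Clopper-Pearson interval 52.3 to 64.9%), in 1 of 245 comparison nuclei (0.408%) and in 0.313% of secretory-type nuclei. Thinned to 1000 UMIs per nucleus, at least 2 of them were seen in 43.5% of member nuclei and 0.840% of comparison nuclei, against 85.4% of member nuclei and 4.08% of comparison nuclei unthinned. By animal, the share of member nuclei with at least 3 lay between 47.8% in KO2 and 3 of 4 nuclei in KO3 among animals labelled Oxtr-KO and between 70.4% and 76.9% among flox animals.

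**Figure D1:**
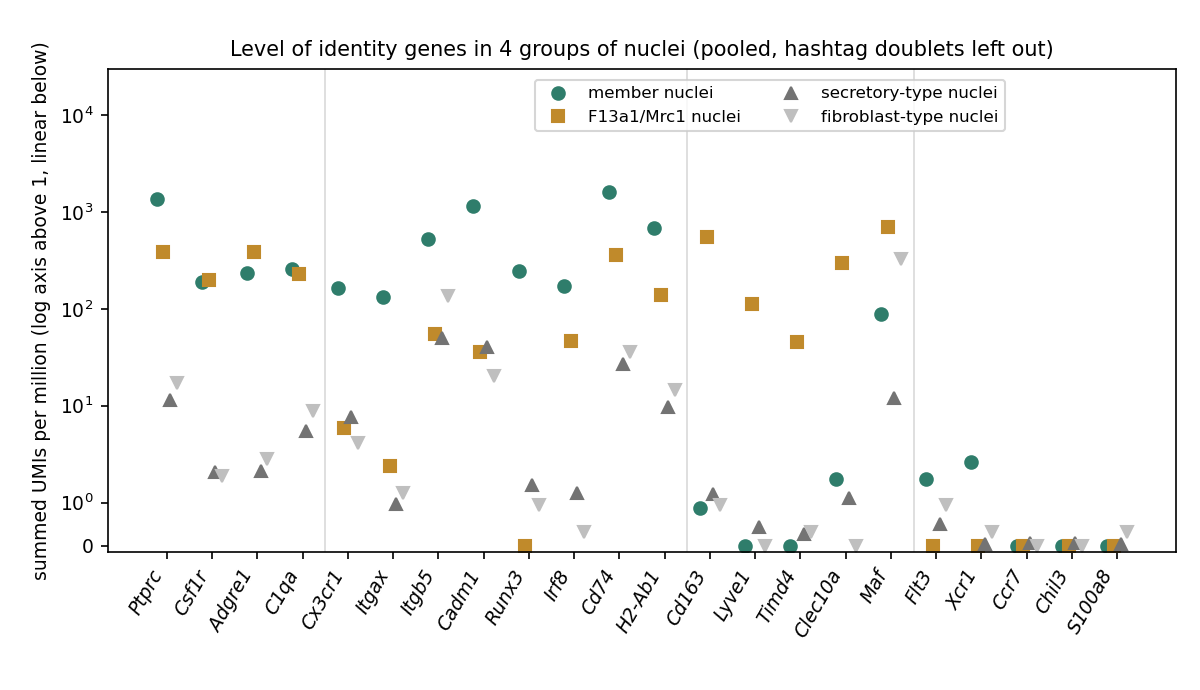
Pooled level (CPM, log axis above 1) of identity genes in member nuclei, F13a1 and Mrc1 nuclei, secretory-type nuclei and fibroblast-type nuclei, hashtag doublets left out. Member nuclei share Csf1r, Adgre1 and C1qa with the F13a1 and Mrc1 nuclei, stand above all 3 other groups for Cx3cr1 to H2-Ab1, and lie at or near 0 for Lyve1, Timd4 and the dendritic, monocyte and neutrophil genes at the right.

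From the macrophage marker lists, the member nuclei are thus ductal macrophage-like, and the dendritic lists are given further below. The list named for Cx3cr1 and Itgax had 11 measured genes, of which 5 were called higher in member nuclei and none lower, with a median log2 difference of 2.11 against 0.09 over all 7791 genes with at least 20 UMIs. The other genes of the list were not called. Among them were the microglial factor Sall1, at 0 in both groups, and Trem2, with 2 UMIs in member nuclei. P2ry12 was at 84.9 CPM in member nuclei and 71.8 CPM in the comparison nuclei, and Apoe, given further below, was also not called. In the F13a1 and Mrc1 nuclei, P2ry12, Csf3r, Apoe and Gpr34 also lay at least 4-fold above their secretory-type and fibroblast-type levels. The Lyve1-type stromal list went the other way, with 8 of 13 genes called higher in the F13a1 and Mrc1 nuclei, none called higher in member nuclei, and a median of -3.88. Lyve1, Cd163, Cd209f and Timd4 had no UMI in the 130 member nuclei and 121, 582, 178 and 67.2 CPM in the comparison nuclei. These are descriptions of groups that were chosen by expression, with no test.

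Across all genes, a gene was called when its pooled level differed at least 4-fold, it had at least 30 UMIs in the higher group, and all 6 animals showed the same direction. Of 4771 genes outside the rule with enough UMIs, 195 (4.09%) were called higher in member nuclei and 91 (1.91%) higher in the F13a1 and Mrc1 nuclei. When each nucleus was thinned to 1000 UMIs, 74 genes were called higher in member nuclei and 34 higher in the comparison nuclei, of which 59 and 22 were among those above. The largest difference was in Lrrc4c, known as a synaptic adhesion gene, at 730 CPM in member nuclei and 2.32 CPM in the comparison nuclei (ratio 315, exact interval 56.3 to 12469). Member nuclei had 606, 670 and 599 CPM of Lrrc4c in KO1, KO2 and KO4 and 781, 1007 and 628 CPM in flox2, flox3 and flox4, while 1 UMI, in KO4, was the total of the comparison nuclei. With nuclei of every animal and those with no hashtag, doublets left out, Lrrc4c was at 776 CPM in member nuclei and 27.2 CPM in the comparison nuclei. Adgrl3, an adhesion receptor of the latrophilin family, was at 1369 CPM in member nuclei and 23.2 CPM in the comparison nuclei, and was seen in 93.5% of member nuclei. Fat3, an atypical cadherin, was at 440 CPM in member nuclei and had no UMI in the comparison nuclei, which made it at least 63.3-fold higher against a floor of 3 UMIs over the group.

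Some of the other genes with the largest differences have known immune roles. Cxcl16, a chemokine that also acts as a scavenger receptor, was at 257 CPM in member nuclei and 2.32 CPM in the F13a1 and Mrc1 nuclei. Mmp12, the macrophage elastase, was at 189 CPM in member nuclei and the inhibitory receptor gene Cd72 at 153 CPM, each against 2.32 CPM in the comparison nuclei. Dnase1l3, a secreted nuclease, was at 96.7 CPM in member nuclei and 2.32 CPM in the comparison nuclei. Others among the 15 were Pkib, Arhgap24, Dach1, Zmynd15, Itgax, Fgr and Asb2, from 94.1 CPM for Fgr and Asb2 to 277 CPM for Arhgap24 in member nuclei. Arhgap24 was abundant in fibroblast-type nuclei at 1360 CPM, and the part of fibroblast RNA in its level was not tested.

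**Figure D2:**
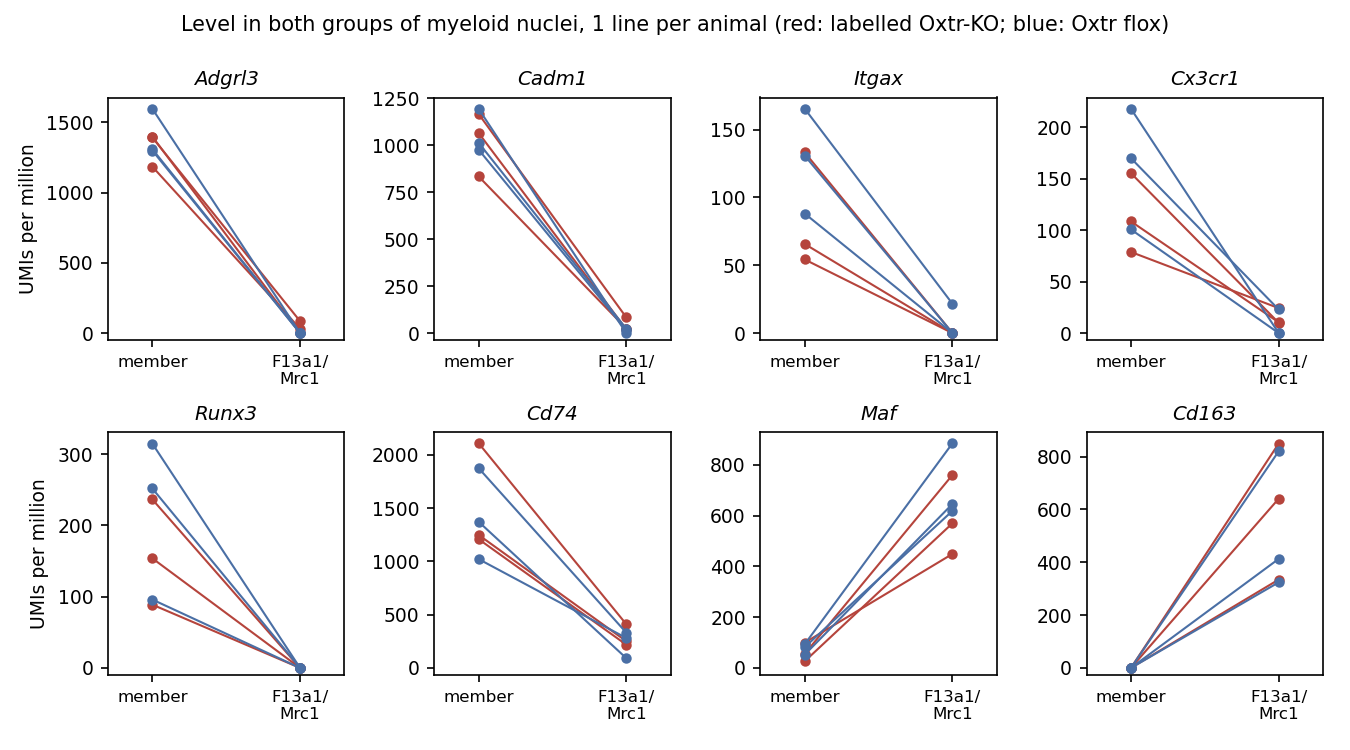
Level of 8 genes (CPM) in member nuclei at the left and F13a1 and Mrc1 nuclei at the right of each panel, with 1 line per animal for the 6 animals that had both. Every line falls to the right for Adgrl3, Cadm1, Itgax, Cx3cr1, Runx3 and Cd74 and rises for Maf and Cd163, in animals of both genotypes.

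The genes lowest in the member nuclei were of several kinds. Clec10a, a lectin of stromal macrophages and dendritic cells, was at 1.31 CPM in member nuclei and 267 CPM in the F13a1 and Mrc1 nuclei. The haemoglobin scavenger receptor Cd163 had no UMI in the 130 member nuclei against 582 CPM in the comparison nuclei. Aoah, which deacylates lipopolysaccharide, was at 3.92 CPM in member nuclei and 380 CPM in the others, and Pltp, a phospholipid transfer protein, at 2.61 CPM in member nuclei and 176 CPM in the comparison nuclei. The lectin Cd209g, the endothelin receptor Ednrb and the hyaluronan receptor Lyve1 also had no UMI in member nuclei, against 134, 123 and 121 CPM in the comparison nuclei. The remaining 8 of the 15 were Adgrg6, Cbr2, Cd209f, Eps8, Gm56975, Plekhg5, Epb41l1 and Ms4a8a.

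Antigen presentation genes were high in member nuclei of every animal. Of 10 measured genes of the MHC class II list, 5 were called higher in member nuclei and none lower, with a median log2 difference of 2.02. The invariant chain gene Cd74 was at 1420 CPM in member nuclei and 280 CPM in the F13a1 and Mrc1 nuclei, and the class II chain genes H2-Eb1 and H2-Ab1 were called as well, with log2 differences of 2.27 and 2.20. Ctss, the protease that trims the invariant chain, was at 504 CPM in member nuclei and 99.7 CPM in the comparison nuclei. Ciita, the master activator of class II transcription, was at 210 CPM in member nuclei and 55.6 CPM in the comparison nuclei and missed the 4-fold limit. The summed level of the list lay between 3419 and 10541 CPM in member nuclei of animals labelled Oxtr-KO and between 3740 and 6558 CPM in those of flox animals. It lay between 121 and 1441 CPM in the F13a1 and Mrc1 nuclei of single animals, so the groups did not overlap. These ranges cover every animal, also KO3 with 4 member nuclei and flox1 with 2 comparison nuclei, which the pooled levels leave out. At least 3 of H2-Aa, H2-Ab1, H2-Eb1 and Cd74 were seen in 213 of 247 member nuclei (86.2%), in 57 of 245 comparison nuclei (23.3%) and in 0.581% of secretory-type nuclei.

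Chemokine and growth factor genes split between the groups. Of 12 measured chemokines and receptors, Cxcl16, Cx3cr1 and Ccr1 were called higher in member nuclei, and Ccl6, Ccl9 and C5ar1 higher in the F13a1 and Mrc1 nuclei, with a median log2 difference of 1.10. Ccl6 was at 20.9 CPM in member nuclei and 248 CPM in the comparison nuclei. Among 10 measured growth factors and cytokines, 3 were called higher in member nuclei: Tnfsf13b, which encodes the B cell survival factor BAFF, Pdgfb and the hepatocyte growth factor gene Hgf. They were at 103, 48.3 and 56.2 CPM in member nuclei, against 4.63, 4.63 and 6.95 CPM in the comparison nuclei. Igf1 was called lower at 27.4 CPM in member nuclei, against 183 CPM in the comparison nuclei, while its free-RNA level in secretory-type nuclei was 69.0 CPM.

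Integrins and the kinases that act beneath immune receptors leaned towards the member nuclei. Of 10 measured integrin and adhesion genes, Itgax, Itgal, Itgav and Itga9 were called higher in member nuclei and none lower. Itgav was at 421 CPM in member nuclei and 71.8 CPM in the comparison nuclei, and Itga9 at 341 CPM in member nuclei and 81.1 CPM in the comparison nuclei. Itgal had 45.7 CPM in member nuclei and no UMI in the F13a1 and Mrc1 nuclei. In nuclei thinned to 1000 UMIs its log2 value was -0.15 against the floor of 3 UMIs set for a group without UMIs. That sign reflects the floor and is not a reversal between the groups. Of 16 kinase and phosphatase genes, 3, Fgr and Vav1 among them, were called higher in member nuclei and none lower, with a median log2 difference of 0.69. Fgr, a Src-family kinase of myeloid cells, was at 94.1 CPM in member nuclei and 2.32 CPM in the comparison nuclei, and Vav1, an exchange factor beneath immune receptors, at 96.7 CPM in member nuclei and 23.2 CPM in the comparison nuclei. The partners of the rule gene Cybb in the NADPH oxidase were not called, with Ncf1 at 107 CPM in member nuclei and 85.7 CPM in the comparison nuclei.

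Among 17 measured myeloid transcription factors, 3 were called. Runx3, known for its part in dendritic cells and lymphocytes, was at 205 CPM in member nuclei and had no UMI in the F13a1 and Mrc1 nuclei. By animal it lay at 154, 236 and 88.8 CPM in member nuclei of KO1, KO2 and KO4 and at 315, 252 and 95.9 CPM in those of flox2, flox3 and flox4. Irf8, needed by monocytes, microglia and some dendritic cells, was at 157 CPM in member nuclei and 30.1 CPM in the comparison nuclei. Maf was the gene called lower. The median over the list was 0.00 on the log2 scale, and Spi1, the myeloid master factor PU.1, was at 129 CPM in member nuclei and 88.1 CPM in the comparison nuclei.

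Genes for engulfing dying cells differed member by member. Of 12 measured efferocytosis genes, Axl, Itgb5, Itgav and Elmo1 were called higher in member nuclei and Gas6 lower, with a median log2 difference of -0.62. Among those called higher, only Elmo1 was at least 4-fold above its level in both secretory-type and fibroblast-type nuclei. Axl, a receptor for phosphatidylserine bridged by Gas6, was at 170 CPM in member nuclei and 20.9 CPM in the F13a1 and Mrc1 nuclei. Fibroblast-type nuclei held 205 CPM of Axl, and the part of fibroblast RNA in its level was not tested. The Axl relative Mertk, given above, was not called. Of 18 lysosomal genes, 2 were called higher in member nuclei, Ctss among them, and the list's median was 0.06. Of 13 lipid-handling genes, the cholesterol exporter Abca1 and Pltp were called, both lower in member nuclei. Apoe was at 728 CPM in member nuclei and 565 CPM in the comparison nuclei.

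Other immune lists showed few calls. Of 15 inhibitory receptors, Cd72 was called higher and Cd200r1 lower in member nuclei, and of 9 activating receptors the beta-glucan receptor Clec7a was called higher, at 108 CPM in member nuclei and 4.63 CPM in the comparison nuclei. None of 17 Toll-like receptor and inflammasome genes, 9 interferon response genes, 6 cell cycle genes, 8 hormone receptor genes or 5 immediate early genes was called. Within the first of these lists, Il1b, which encodes interleukin-1 beta, was at 86.2 CPM in member nuclei with no UMI in the comparison nuclei, but was absent from the member nuclei of KO1.

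**Figure D3:**
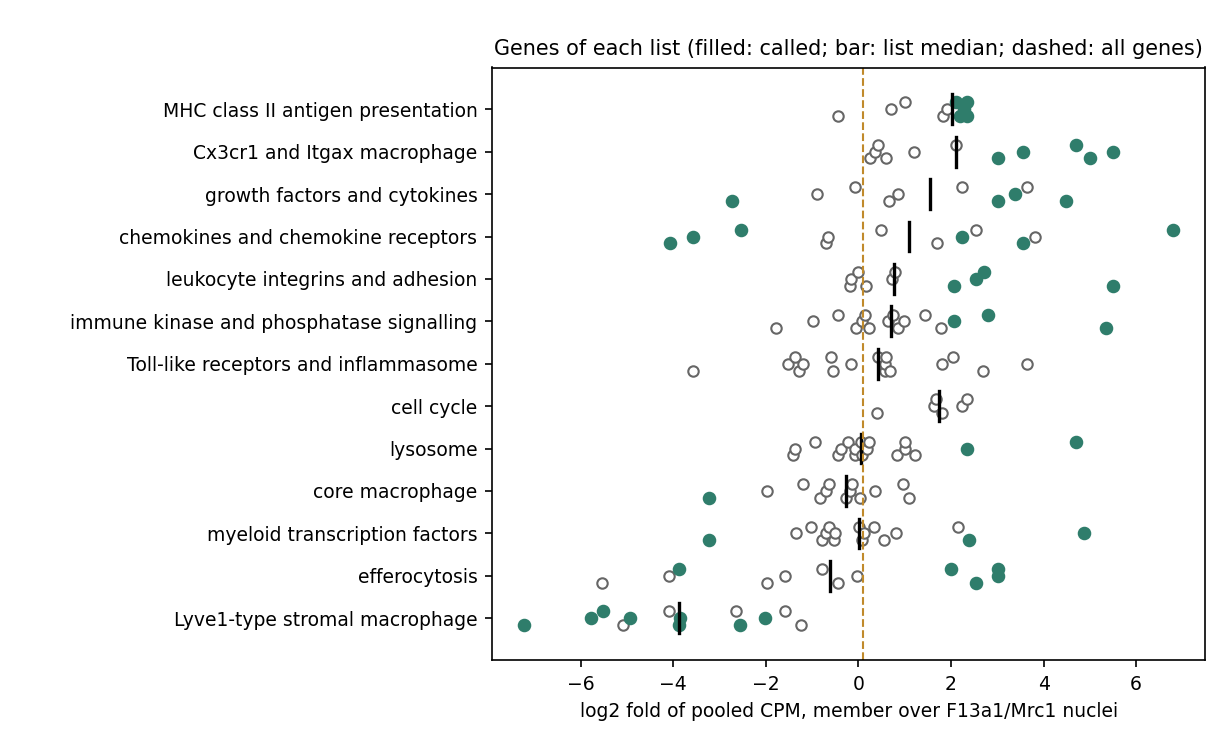
Log2 difference in pooled level, member nuclei over F13a1 and Mrc1 nuclei, for each measured gene of 13 lists (filled points: called; black bar: list median; dashed line: median of all genes, 0.09). The medians of the MHC class II list (2.02) and the Cx3cr1 and Itgax list (2.11) lie to the right and that of the Lyve1-type list (-3.88) to the left.

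Several defining genes of other leukocytes were at or near 0 in the 130 member nuclei. The dendritic genes Cd209a and Ccr7 had no UMI, Flt3 had 2, Xcr1 had 3 and Zbtb46 had 4. At least 2 of Flt3, Zbtb46, Xcr1, Clec9a, Cd209a and Ccr7 were found in 2 of 247 member nuclei (0.810%), and in 5 of 245 comparison nuclei (2.04%). Some genes shared by dendritic cells were present. The pan-dendritic list had 3 measured genes, 1 called higher in member nuclei and none lower, and a median log2 difference of 1.92. For the lists of the conventional types cDC1 and cDC2 it was 0.63 (1 of 4 called higher) and -2.43 (2 of 4 called lower). The migratory and plasmacytoid dendritic lists had medians of 0.19 and 1.00, with no gene called. Siglech, known from plasmacytoid dendritic cells and microglia, was seen in 60 member nuclei (24.3%), 4.49% of comparison nuclei and 0.149% of secretory-type nuclei. Xcr1 or Clec9a was seen in 19 member nuclei (7.69%), 1 comparison nucleus and 0.231% of secretory-type nuclei. Dpp4 was called higher, at 176 CPM in member nuclei and 41.7 CPM in the comparison nuclei, with 84.5 CPM in secretory-type nuclei. Of the pan-dendritic genes, only Ciita was at least 4-fold above its secretory-type and fibroblast-type levels in member nuclei. For monocytes, Chil3 and S100a4 had no UMI and Ly6c2 had 3, while Ccr2 was at 65.3 CPM in member nuclei and 46.3 CPM in the comparison nuclei. The neutrophil genes S100a8 and S100a9 had no UMI.

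Lymphocyte genes were scarce in the member nuclei. Their 12 T cell genes summed to 0 to 158 CPM in member nuclei of animals labelled Oxtr-KO and 21.8 to 126 CPM in those of flox animals, with Cd8a and Cd3d at 0 and Cd4, a T cell gene also known from some macrophages, the only 1 above the free-RNA level. At least 2 T cell genes were seen in 5 of 247 member nuclei (2.02%, interval 0.660 to 4.66%), 1 of 245 comparison nuclei (0.408%) and 0.440% of secretory-type nuclei, and 3 of the 5 came from KO2. The 12 NK and innate lymphoid genes summed to 0 to 19.7 CPM in member nuclei of animals labelled Oxtr-KO and 7.19 to 25.2 CPM in those of flox animals, with Ncr1, Klrb1c and Eomes at 0. The 9 B cell genes summed to 0 to 39.4 CPM under the KO label and 6.29 to 8.72 CPM in flox animals, with Pax5 at 0. Klra2 belongs to a receptor family otherwise known from NK cells, and none of the 247 member nuclei had UMIs of 2 or more genes of the NK list. The upper Clopper-Pearson limit of 1.48% holds for nuclei with such UMIs and sets no limit on nuclei that express the genes below detection.

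The member nuclei were not uniform. At least 3 of 14 cell cycle genes were seen in 28 of 247 member nuclei (11.3%), in 2 of 245 comparison nuclei (0.816%) and in 0.648% of secretory-type nuclei. After thinning to 1000 UMIs, with 1 member and 7 comparison nuclei too shallow, the shares were 3.66% of member nuclei (interval 1.69 to 6.83%), 0.840% of comparison nuclei (0.102 to 3.00%) and 0.151% of secretory-type nuclei, so the intervals of the member and comparison nuclei overlapped. By animal, 2, 3, 0 and 2 such member nuclei came from KO1 to KO4 and 6, 2, 5 and 2 from flox1 to flox4. Top2a, a topoisomerase of dividing cells, was spread over 30 member nuclei.

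Protease and cytokine genes were each confined to a share of the member nuclei. Mmp12 was detected in 99 of 247 member nuclei (40.1%) and 1 of 245 comparison nuclei, and all 8 animals contributed, from 37.5% of member nuclei in KO1 to 4 of 4 in KO3. Collagenase Mmp13 was detected in 35 member nuclei (14.2%) and no comparison nucleus, but 35 of its 109 UMIs came from 1 nucleus. Dcstamp or Ocstamp, which encode fusion proteins of osteoclasts and giant cells, was seen in 88 member nuclei (35.6%) and 1 comparison nucleus. Il1b was detected in 56 member nuclei (22.7%, interval 17.6 to 28.4%), none of 245 comparison nuclei (upper limit 1.49%) and 0.164% of secretory-type nuclei. A single nucleus held 38 of its 158 UMIs, and Cxcl2 had 45 UMIs in only 3 nuclei. Cx3cr1 was seen in 118 member nuclei (47.8%), Itgax in 107 (43.3%) and both in 55. Depth bears on these shares, since member nuclei with Cx3cr1 had a median of 3468.5 UMIs and those without it 3111.

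Between genotypes, member nuclei made up a smaller mean share in animals labelled Oxtr-KO, and the difference did not pass the test. The counts were 16, 23, 4 and 17 member nuclei in KO1 to KO4 and 28, 27, 26 and 21 in flox1 to flox4. As a share of the kept nuclei with 1 hashtag these were 0.833, 1.37, 0.321 and 1.19% in animals labelled Oxtr-KO and 1.64, 1.66, 1.29 and 1.52% in flox animals. KO2 lay above flox3, and KO3 was far below all others. The means were 0.930 ± 0.463% in animals labelled Oxtr-KO and 1.53 ± 0.170% in flox animals (SD, n = 4 each), a difference of -0.598 percentage points (two-sided exact permutation p = 0.0571, where 4 animals against 4 can reach 0.0286). With at least 5 rule genes per nucleus the difference was -0.648 (exact permutation p = 0.0286). A ratio rule for hashtags left 21, 19, 0 and 4 member nuclei in KO1 to KO4 and 2, 1, 1 and 8 in flox1 to flox4. On those few nuclei the difference was 0.0798 (exact permutation p = 0.83). With each nucleus thinned to 1000 UMIs and at least 2 rule genes required, it was -0.262 (exact permutation p = 0.400). Without KO2 it was -0.745 (exact permutation p = 0.0286, n = 3 and 4). Fewer such cells and fewer of their nuclei recovered cannot be told apart.

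The ratio of member nuclei to F13a1 and Mrc1 nuclei pointed the same way. With 0.5 added to each count, its log2 was -0.30 ± 1.05 in animals labelled Oxtr-KO and 1.66 ± 1.39 in flox animals (SD, n = 4 each), a difference of -1.96 (two-sided exact permutation p = 0.0571). The animal flox1 had 28 member nuclei but 2 comparison nuclei and so the highest ratio, and without flox4 the difference was -2.42 (exact permutation p = 0.0286). It was smaller with all 10 hashtags, at -1.11 (exact permutation p = 0.0571), under the ratio rule, at -1.14 (exact permutation p = 0.343), and thinned, at -1.40 (exact permutation p = 0.171). The ratio rule left no F13a1 and Mrc1 nucleus in flox1 and flox2. F13a1 and Mrc1 nuclei themselves made up 1.08 ± 0.445% in animals labelled Oxtr-KO and 0.605 ± 0.468% in flox animals (exact permutation p = 0.200, n = 4 each). The median depth of member nuclei was 3830.5 ± 1158 UMIs in animals labelled Oxtr-KO and 4026.6 ± 286 UMIs in flox animals (exact permutation p = 0.771, n = 4 each). Their milk protein UMIs were 11.1 ± 0.992% in animals labelled Oxtr-KO and 10.7 ± 1.26% in flox animals (exact permutation p = 0.629, n = 4 each). With all 10 hashtags that difference was 5.09 percentage points (exact permutation p = 0.0571), and its part in the share was not tested. Their median number of genes was 1878 ± 412 in animals labelled Oxtr-KO and 2026.2 ± 108 in flox animals (exact permutation p = 0.543, n = 4 each), and without KO1 the difference was -313 (exact permutation p = 0.0286, n = 3 and 4).

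**Figure D4:**
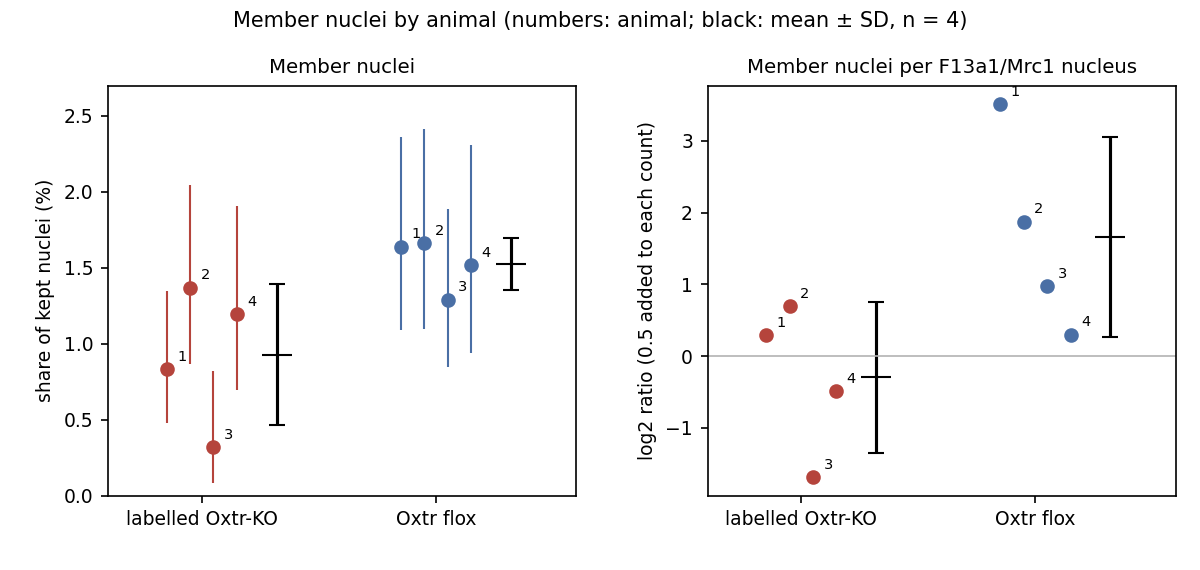
Member nuclei by animal, with animals labelled Oxtr-KO at the left of each panel and Oxtr flox animals at the right. The first panel gives the share of kept nuclei (%) with its 95% Clopper-Pearson interval and the second the log2 ratio to F13a1 and Mrc1 nuclei with 0.5 added to each count, and black marks give the mean ± SD (n = 4). Shares run from 0.321 to 1.37% in animals labelled Oxtr-KO and from 1.29 to 1.66% in flox animals.

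No gene of the member nuclei passed the genotype test. UMIs were summed per animal, and animals with at least 10 member nuclei were compared, which left 3 animals labelled Oxtr-KO (KO3, with 4 nuclei, dropped out) and 4 flox animals. Of 2977 genes tested with edgeR's quasi-likelihood test and Benjamini-Hochberg adjustment, 0 (0%) had an adjusted p under 0.05, and 179 (6.01%) had an unadjusted p under 0.05, 103 higher and 76 lower in animals labelled Oxtr-KO. DESeq2 likewise gave 0 calls and 83 genes at that unadjusted level. In the F13a1 and Mrc1 nuclei, edgeR called 0 of 1565 genes and 99 (6.33%) reached an unadjusted p under 0.05, while the 0 calls of DESeq2 came with 54 such genes.

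The genes with the smallest p in member nuclei lay near or below their levels in secretory-type nuclei. Fabp4, a fatty acid carrier of adipocytes and endothelium, had 127, 92.0 and 211 CPM in KO1, KO2 and KO4 and 29.0, 56.7, 7.19 and 8.72 CPM in flox1 to flox4. The groups did not overlap, and the log2 difference was 2.33 (SE 0.51, edgeR quasi-likelihood adjusted p = 0.412). In KO4, 16 of 19 Fabp4 UMIs came from 1 nucleus, and secretory-type nuclei held 93.8 CPM in animals labelled Oxtr-KO and 52.3 CPM in flox animals. Cytip, which encodes an adaptor of leukocyte adhesion, had log2 1.00 (adjusted p = 0.491 by edgeR), with 1003 ± 188 CPM in animals labelled Oxtr-KO (n = 3) and 512 ± 165 CPM in flox animals (n = 4). Its level in secretory-type nuclei was higher still, 1177 CPM in animals labelled Oxtr-KO and 1040 CPM in flox animals. The other 8 were Prkg1, Ghr, Arhgef38, Tceal9, Tacc2, Pdgfd, Arfgap3 and Nhsl1, of which Prkg1 was lower (log2 -2.02) and the rest higher in animals labelled Oxtr-KO. All 10 were between 0.417 and 1.09 times their level in secretory-type nuclei. Fibroblast-type nuclei held 55.4 CPM of Cytip and 10.7 CPM of Arhgef38, less than member nuclei, but 677 CPM of Prkg1 and 738 CPM of Ghr. How much of these levels in member nuclei was free RNA was not tested.

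Among genes well above the free-RNA level, unadjusted p under 0.05 was reached by some named genes, none past adjustment. The cathepsin gene Ctsh had 407, 420 and 566 CPM in KO1, KO2 and KO4 and 276, 277, 252 and 349 CPM in flox1 to flox4. Its groups did not overlap, with a log2 difference of 0.70 (SE 0.23, edgeR adjusted p = 0.673), and secretory-type nuclei held 78.0 CPM in animals labelled Oxtr-KO and 56.7 CPM in flox animals. Itga4, a subunit of the integrin VLA-4, had 9.04, 118 and 88.8 CPM in KO1, KO2 and KO4 and 167, 201, 137 and 201 CPM in flox1 to flox4 (log2 -1.20, SE 0.41, edgeR adjusted p = 0.683). Itga9 had 264 ± 56.9 CPM in animals labelled Oxtr-KO (n = 3) and 415 ± 22.5 CPM in flox animals (n = 4), with log2 -0.64 (edgeR adjusted p = 0.683). Irf8 had 117 ± 24.2 CPM in animals labelled Oxtr-KO and 190 ± 43.4 CPM in flox animals (log2 -0.66, edgeR adjusted p = 0.802). Cx3cr1 missed the unadjusted level too, with 114 ± 38.6 CPM in animals labelled Oxtr-KO and 169 ± 49.9 CPM in flox animals (log2 -0.59, edgeR adjusted p = 0.817).

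**Figure D5:**
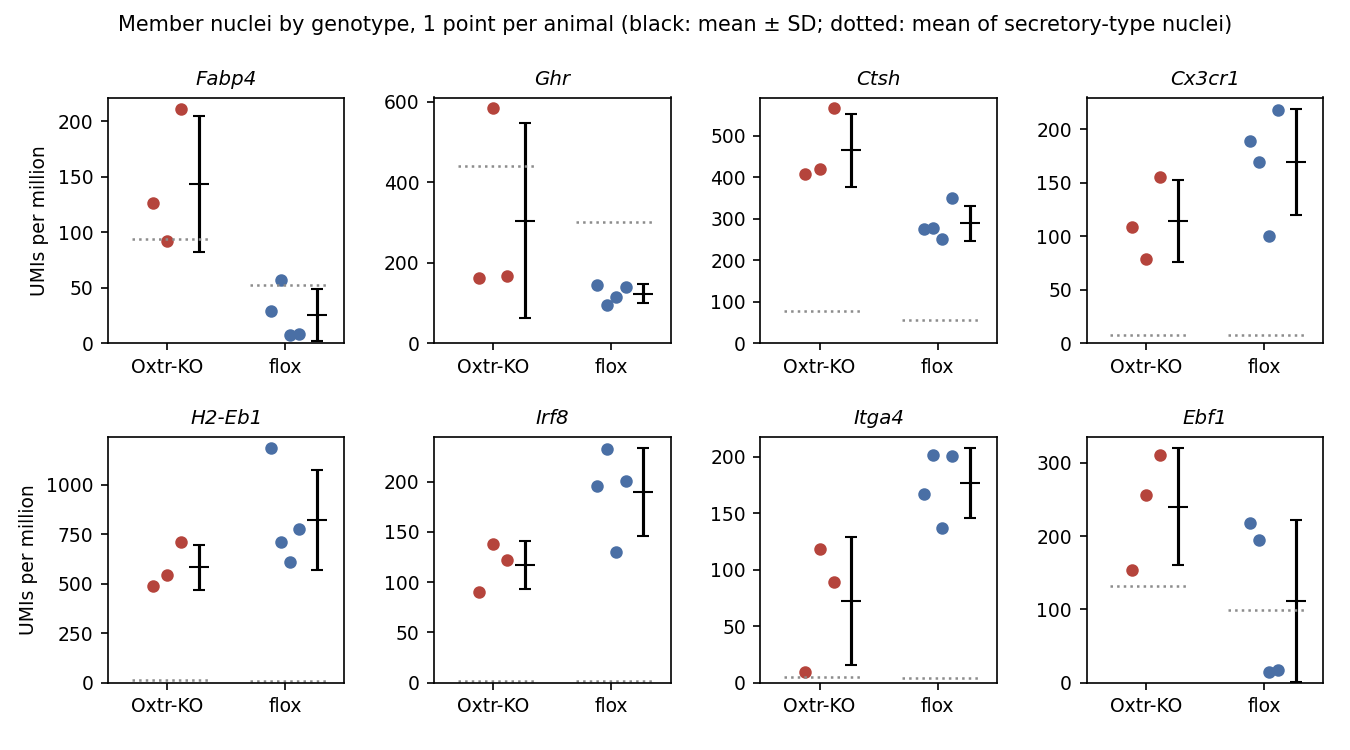
Level in member nuclei (CPM) by animal, 3 animals labelled Oxtr-KO at the left and 4 Oxtr flox animals at the right of each panel, with black marks for the mean ± SD and dotted lines for the mean in secretory-type nuclei. Fabp4 lies on both sides of the dotted lines, and Ghr lies below them except in KO2 (585 CPM against 441 CPM). Ctsh, Cx3cr1, H2-Eb1, Irf8 and Itga4 lie above them in every animal shown, and flox3 and flox4 have 14.4 and 17.4 CPM of Ebf1.

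By list, no gene passed adjustment, and the lists differed in direction. All 8 tested MHC class II genes and all 6 tested chemokine genes had log2 differences below 0, with medians of -0.27 and -0.44. So did all 8 genes of the rule, with a median of -0.35, and the 2 tested NADPH oxidase genes. The direction is thus not particular to these lists. Below 0 were also 11 of 15 transcription factors and 10 of 15 lysosomal genes. Of 6 hormone receptor genes 1 was below 0, and of 10 lipid-handling genes 5 were, against 1480 of 2977 over all genes. Over all genes, 179 of 2977 (6.01%) had an unadjusted p under 0.05, 103 higher and 76 lower in animals labelled Oxtr-KO. No list was tested against that share. Within lists, 1 of the 8 MHC class II genes (H2-DMb1) and none of the chemokine genes reached that level. So did 3 of 8 integrin genes (Itga4, Itga9 and Itgax) and 2 of 15 transcription factors (Runx1 and Irf8). All of these were lower in animals labelled Oxtr-KO. Genes higher in animals labelled Oxtr-KO reached it in the lysosomal (Ctsh and Lipa), lipid-handling (Fabp4 and Lipa) and hormone receptor lists (Ghr and Vdr). By edgeR, 0 were past adjustment in each list. Genes of 1 nucleus are counted together, so the members of a list are not independent of each other.

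The genotype difference differed between the macrophage groups for 2 of 2594 genes (0.0771%), both abundant in fibroblast-type nuclei, while 97 (3.74%) had an unadjusted p under 0.05. In 6 animals with both groups, edgeR's interaction test gave Ebf1, a transcription factor of fibroblasts and adipocyte precursors, a log2 difference of 5.15 (SE 0.90, adjusted p = 0.00266) and Nav3 4.17 (adjusted p = 0.0107). These values are signed gaps between the groups of nuclei. Ebf1 had 154, 256 and 311 CPM in member nuclei of KO1, KO2 and KO4 and 195, 14.4 and 17.4 CPM in those of flox2, flox3 and flox4, while the F13a1 and Mrc1 nuclei had 0, 0 and 30.02 CPM in KO1, KO2 and KO4 and 390, 21.6 and 0 CPM in flox2, flox3 and flox4. The mean of Ebf1 over these animals was thus higher under the KO label in member nuclei and lower in the comparison nuclei. In the F13a1 and Mrc1 nuclei of flox2, 16 of 17 Ebf1 UMIs and all 26 Nav3 UMIs came from 1 nucleus, and without flox2 neither was called. Without KO1 or KO4 Ebf1 alone was called, and without flox3 Creb5 and Gpc6 joined the pair. Fibroblast-type nuclei held 5441 CPM of Ebf1 and 910 CPM of Nav3. DESeq2 gave 0 calls and 16 genes at an unadjusted p under 0.05.

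Oxtr itself was at the free-RNA level in member nuclei. It had 4 UMIs in 60 member nuclei of animals labelled Oxtr-KO (11.0 CPM) and 4 UMIs in 102 member nuclei of flox animals (7.27 CPM), while secretory-type nuclei held 8.27 CPM under the KO label and 7.68 CPM in flox animals. In adipocyte-type nuclei (at least 4 of 6 adipocyte genes), the targeted type, Oxtr had 19 UMIs in 210 nuclei of animals labelled Oxtr-KO (15.9 CPM) and 5 UMIs in 159 nuclei of flox animals (5.93 CPM). It was thus not lower under the KO label. The labels do not say which part of the gene is deleted, so reads from the rest of the gene cannot be told apart and this count does not check the labels.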

How the data were processed

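The authors deposited raw UMI counts per gene and nucleus for the pooled mRNA library, and read counts per hashtag UMI, whose lines were counted here per barcode. The submitters' processing notes name Cell Ranger 7.2.0, fastp and build GRCm39. The genome at hand is another build, so no coordinates are given. Barcodes with at least 500 UMIs, 300 genes and under 5% mitochondrial UMIs were kept (20854 of 21805). HTODemux (Seurat 5.3.0, quantile 0.99) assigned nuclei to animals on 9 of 10 hashtags, and all 21805 barcodes were shared by both libraries. Doublets within an animal are not seen by hashtags.

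Comparison nuclei had both F13a1 and Mrc1, at least 4 UMIs of them, under 4 of the 8 rule genes and at most 1 UMI of the 4 excluded genes. UMIs were summed per animal and tested with edgeR 4.0.16 (quasi-likelihood, TMM, filterByExpr, Benjamini-Hochberg, threshold 0.05) under R 4.3.3, with DESeq2 1.42.0 as an alternative. A minimum of 10 member nuclei per animal applied, or 5 for the comparison nuclei and the interaction. Shares used exact permutation tests under Python 3.11.15. On simulated data, 43.5% of genes changed 2-fold and 98.9% of genes changed 4-fold were recovered in the 3 against 4 test of member nuclei over 2977 genes. In the same run 11 unchanged genes were called as well. Counts were drawn only for genes past the filter, with a spread shared by genes of like level. UMIs heaped in 1 nucleus were not simulated. Each dam is 1 replicate.

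The members and lists were chosen with earlier results of these data known. Genes named between genotypes were those past the threshold or the 10 with the smallest p, plus Oxtr and the first 2 of each functional list. Between groups of nuclei they were the 15 largest folds each way and up to 4 per list. Others named, among them those of the border and of shares per nucleus, were chosen after their values were seen. Alternatives covered the rule, hashtag calling, depth, filters, scaling and each animal left out. Some genes are not reported here.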

Additional observations from a re-analysis of the deposited data

Results flagged for a closer look

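Of 55 sets of 4 flox animals or 4 animals labelled Oxtr-KO looked at, 4 had 1 animal far from the others, where chance gives about 1 in 20. In member nuclei of flox animals, the lowest Ncf1 level was 56.7 CPM in flox2, the highest Il1b level was 370 CPM in flox1 (the others lay between 69.8 and 93.5 CPM), the lowest Itga9 level was 381 CPM in flox3, and the highest Jund level was 235 CPM in flox4. The signed genotype difference, KO over flox, in member nuclei minus that in F13a1 and Mrc1 nuclei was log2 5.15 for Ebf1 and log2 4.17 for Nav3 by edgeR's interaction test. In KO1, 20 of the 36 Nav3 UMIs of the member nuclei came from 1 nucleus.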

How the results depend on the processing

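The animals in the member gene test held 90096 to 158866 UMIs of member nuclei, and simulated 2-fold changes were recovered less often (43.5%) than 4-fold changes (98.9%) in that design. The genotype difference in the share of member nuclei (-0.598 percentage points) was -0.628 with at least 3 rule genes and -0.648 with at least 5 (exact permutation p = 0.0286 both), 0.0798 under the ratio rule for hashtags, -0.262 when thinned (exact permutation p = 0.400), and between -0.745 and -0.395 with each animal left out, where only the set without KO2 passed (exact permutation p = 0.0286, n = 3 and 4). The log2 ratio to F13a1 and Mrc1 nuclei lay between -2.42 and -1.35 with each animal left out, and was -1.11 with all 10 hashtags, -1.14 under the ratio rule and -1.40 when thinned. Left-out ranges were -628 to 280 for median UMIs, -313 to 22.6 for median genes, -0.0098 to 0.987 for the milk protein percent (-0.0549 with at least 5 rule genes, 5.09 with all 10 hashtags) and -0.00667 to 0.0457 for the mitochondrial percent (0.0847 with all 10 hashtags). Genes called by genotype in member nuclei (0) were 8 with no filter, 1 with at least 5 rule genes (Ebf1) and 0 to 1 with each animal left out (Bcl11a without flox4). In F13a1 and Mrc1 nuclei (0) they were 10 with no filter, 4 with a replicate block and 0 with each animal left out. For the interaction (2) they were 0 with DESeq2 and with all 10 hashtags, 4 with no filter and 0 to 4 with each animal left out. Genes called higher in member nuclei (195) were 74 when thinned, 293 with at least 10 UMIs and 162 to 189 with each animal left out, and those higher in the F13a1 and Mrc1 nuclei (91) were 34 when thinned and 71 to 94. The cause of these changes was not tested. The replicate numbers did not pair the animals (correlations of -0.06, -0.00 and 0.02 in member nuclei and -0.04, 0.04 and 0.34 in the others). The block left the calls in member nuclei at 0 and the share at -0.598 (sign-flip exact p = 0.125, the smallest possible). The ratio rule left too few animals for the gene tests, with 2, 1, 1 and 8 member nuclei in flox1 to flox4. Among single genes, 23 of 702 genotype values in member nuclei changed sign, in 6 genes with a log2 value between -0.15 and 0.13: Ncf1 (DESeq2 0.012, all 10 hashtags 0.59, replicate block 0.13, the same animals without it 0.11, at least 3 rule genes 0.00056, without cycling nuclei 0.41, left-out range -0.38 to 0.32), Cd36 (without cycling nuclei -0.16, left-out range -0.10 to 0.31), Ifih1 (left-out range -0.56 to 0.037), Stat2 (-0.68 to 0.23), Top2a (replicate block 0.36, without it 0.39, at least 5 rule genes 0.078, left-out range -0.44 to 0.39) and Jund (at least 3 rule genes 0.16, without nuclei with a T or NK gene 0.18, left-out range -0.11 to 0.26). Itgal was -0.15 when thinned, against the floor of 3 UMIs set for comparison nuclei without a UMI. Leaving out nuclei with T or NK genes and cycling nuclei, chosen after seeing the data, gave 166 and 167 genes higher in member nuclei.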
